A study of Homo sapiens with 36 samples.

Results

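The 9 genes described here belong to the transforming growth factor beta (TGF-beta) pathway: the ligands TGFB1 and TGFB2, the receptors TGFBR1 and TGFBR2, the signal transducers SMAD2, SMAD3 and SMAD4, and the inhibitors SMAD7 and SKIL. They were chosen by symbol, and all 9 matched a gene among the 58243 genes counted. Expression was measured by RNA sequencing in 36 libraries, 3 from each of 12 groups, made from the established human pancreatic ductal adenocarcinoma lines PANC-1, MIA PaCa-2 and BxPC-3. Each line was given DMSO as vehicle, GW3965, which is a synthetic agonist of the liver X receptors (LXR), or 1E5 or 3A4, 2 compounds known here by code name that the labels class as LXR inverse agonists. Treatment lasted 48 h with the ligand at 10 µM, and no other agent, TGF-beta included, is named for any group. BxPC-3 grew in RPMI 1640 and MIA PaCa-2 and PANC-1 in DMEM, both with serum, so in comparisons with BxPC-3 the effect of line and that of medium cannot be told apart. The titles number the libraries of a group as biological replicates without stating that they were cultured separately, and p-values here measure only the spread between these libraries.

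As background, TGF-beta ligands are secreted in a latent form, and once released they bind the type II receptor TGFBR2, which recruits and phosphorylates the type I receptor TGFBR1. TGFBR1 phosphorylates SMAD2 and SMAD3, which join the common partner SMAD4 and enter the nucleus to regulate transcription. SMAD7 blocks the receptor and SKIL, also called SnoN, represses SMAD complexes on DNA. Both inhibitors are themselves well-known targets of the pathway. SMAD4 is one of the genes most often lost in pancreatic ductal adenocarcinoma, and BxPC-3 is known as a line without it.

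Library totals ran from 19605935 to 25888304 counts in BxPC-3, from 14960970 to 26026684 in PANC-1 and from 2701393 to 25503827 in MIA PaCa-2, where the DMSO libraries held 3609582 to 10996848 counts and the 1E5 libraries 23675670 to 25503827. The share of counts from mitochondrial DNA averaged 7.55% under DMSO and 2.04% under 1E5 for MIA PaCa-2 (3 libraries each), and 6.82% and 4.40% for PANC-1, whose 1E5 replicate 2 stood apart at 6.59%. Of 6 epithelial markers, all had counts in PANC-1 with DMSO, and 5 did in MIA PaCa-2 with DMSO, where EPCAM was at 0. Their summed level ranged from 3290 to 5023 CPM (counts per 1000000 counts of the library) with DMSO and from 813 to 915 with 1E5 in PANC-1, and from 1302 to 1610 and from 601 to 645 in MIA PaCa-2. The 6 fibroblast markers, of which 3 or 4 had counts in these groups, summed to 53.6 to 183 CPM with DMSO and 6.09 to 16.3 with 1E5 in PANC-1, and to 236 to 246 and 10.1 to 30.0 in MIA PaCa-2. With 3A4 the fibroblast sum was also lower than with DMSO, at 12.7 to 39.1 CPM in PANC-1 and 93.5 to 171 in MIA PaCa-2, and the epithelial sum overlapped that with DMSO. The 4 leukocyte markers summed to 9.83 to 16.0 CPM with DMSO, 47.5 to 67.6 with 1E5 and 48.7 to 48.8 with 3A4 in PANC-1. In MIA PaCa-2 these sums were 20.1 to 33.5, 4.98 to 8.95 and 21.2 to 31.3 CPM. The 3 endothelial markers summed to 20.5 to 24.5 CPM with DMSO, 0 to 0.656 with 1E5 and 6.86 to 11.8 with 3A4 in MIA PaCa-2, and to at most 0.334 CPM in PANC-1 with these treatments. DCN and LUM, 2 of the fibroblast markers, and PECAM1, an endothelial marker, were at 0 in both lines with DMSO, 1E5 and 3A4. So were the leukocyte markers PTPRC and CD3E, except for 2 counts of PTPRC in PANC-1 with 3A4. Apart from these, the leukocyte sums came from CD14 and CD68. In MIA PaCa-2 with DMSO, VWF was at 0 too, so the endothelial sum came from CDH5 alone. PDGFRB was also at 0 there, so the fibroblast sum came from the collagen genes COL1A1, COL1A2 and COL3A1. The part of depth, mitochondrial share and these marker levels in the results below was not tested.

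SMAD4, which lies on chromosome 18 (chr18:51028394-51085045, GRCh38, plus strand), had no count in any of the 12 BxPC-3 libraries. A count of 0 over all 12 allows a level of up to 0.0113 CPM, counting error only. The absence with DMSO is part of how the genes were chosen and is given as a description. With DMSO the gene was counted 390, 639 and 117 times in the 3 MIA PaCa-2 libraries and 1057, 1006 and 1150 times in those of PANC-1. The zeros in BxPC-3 extended to the neighbouring genes. MAPK4, MRO, ME2, ELAC1 and MEX3C, which flank SMAD4 on both sides, and a gene model that reads through from ELAC1 into SMAD4 also had no count in all 12 BxPC-3 libraries. ME2, a mitochondrial malic enzyme, had 33301 counts over the 12 MIA PaCa-2 libraries and 23575 over those of PANC-1. ELAC1, a tRNA-processing nuclease, had 2250 and 1580 counts there, and MEX3C, an RNA-binding ubiquitin ligase, 10473 and 15427. MAPK4 and MRO were scarce in every line, with at most 50 counts over 12 libraries, and MAPK4 had no count in PANC-1 either. Their zeros in BxPC-3 therefore say little. The first protein-coding gene with counts on the left was SKA1, with 3607 counts over the BxPC-3 libraries, and the first on the right was DCC, with 77. The genes without a count spanned the interval from 50560078 to 51218304 on chromosome 18. With MAPK4 and MRO set aside, it began at 50878734, the start of ME2. SMAD7 and SMAD2 lie on the same chromosome arm outside that interval, and both were counted in all 12 BxPC-3 libraries. Among 6899 protein-coding genes at 10 CPM or more in every MIA PaCa-2 and PANC-1 library, 10 had no count in BxPC-3. On chromosome 18 these were 2, ME2 and SMAD4, the latter part of how the genes were chosen. Others lay elsewhere, among them C2CD2, ZBTB21 and ENSG00000274276 on chromosome 21. The same search gave 8 of 7290 genes for MIA PaCa-2 and 0 of 6870 for PANC-1. The share of the 6899 genes on chromosome 18 is not given, so no excess there is shown. The counts measure RNA, and the number of gene copies was not measured.

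**Figure D1:**
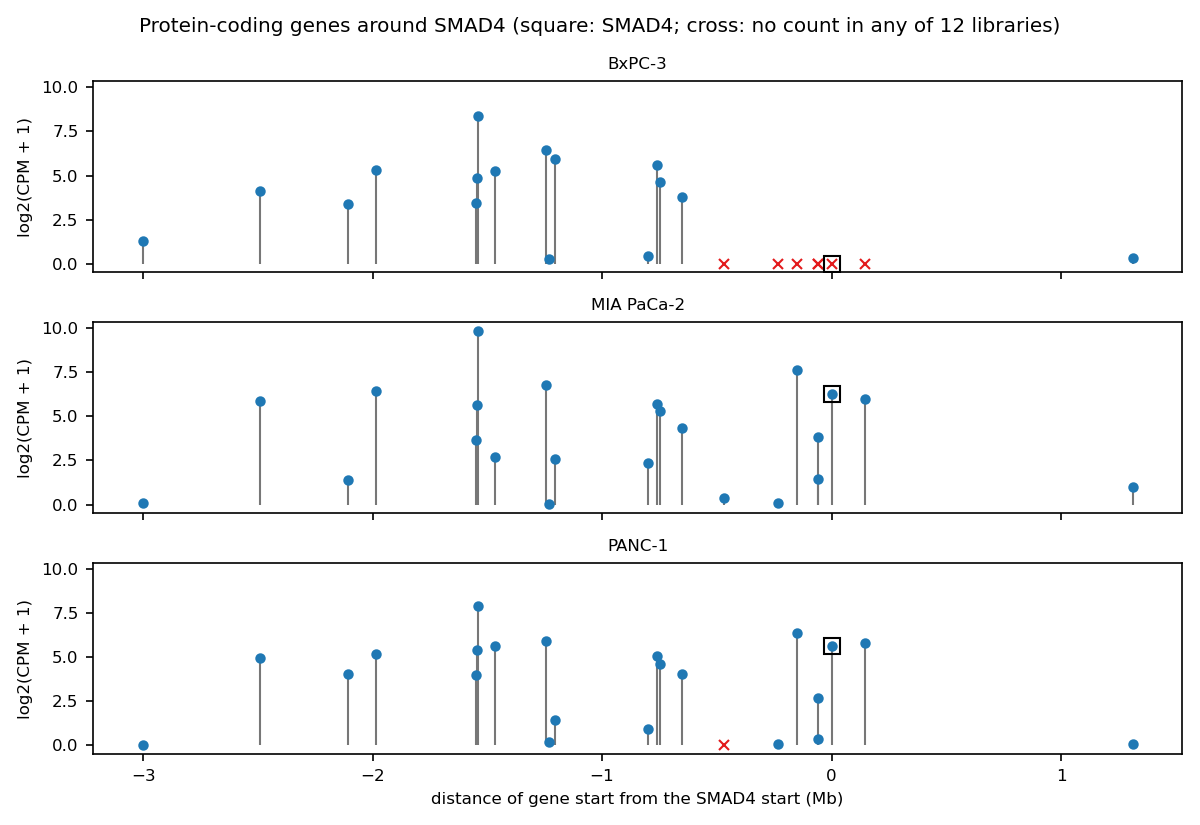
Pooled level, as log2(CPM + 1) over the 12 libraries of each line, of the protein-coding genes around SMAD4, against the distance of their annotated start from that of SMAD4 in megabases. In BxPC-3, SMAD4 (square) and its nearest neighbours on both sides are at 0 (crosses), whereas in MIA PaCa-2 and PANC-1 SMAD4, ME2 and MEX3C are all well above 0.

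The ligand genes differed between lines with DMSO. TGFB1 (chr19:41301587-41353911, minus strand), the most widely expressed TGF-beta ligand, stood at 99.9, 103 and 134 CPM in the BxPC-3 libraries, at 13.7, 12.2 and 12.2 CPM in MIA PaCa-2 and at 39.4, 41.7 and 43.3 CPM in PANC-1. The 3 lines did not overlap. CPM from here on use library totals scaled with the trimmed mean of M-values (TMM). BxPC-3 exceeded PANC-1 by 1.44 ± 0.189 on the log2 scale (fitted difference ± SE, edgeR adjusted p = 1.92e-07), and MIA PaCa-2 was 3.26-fold lower than PANC-1 (adjusted p = 3.92e-08). TGFB1 overlaps HNRNPUL1, CCDC97 and TMEM91 on the other strand, and since the strand setting of the counting is not given, reads of these genes could be counted with it.

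TGFB2 (chr1:218346235-218444619, plus strand), a second ligand, had no count in the 3 MIA PaCa-2 libraries with DMSO. It stood at 31.5, 29.4 and 19.6 CPM in BxPC-3 and at 64.4, 63.4 and 58.5 CPM in PANC-1. MIA PaCa-2 was at least 438-fold lower than PANC-1, taking 3 counts over the group as its upper limit (adjusted p = 7.06e-12), and BxPC-3 was 2.32-fold lower than PANC-1 (adjusted p = 0.00348). Under the other ligands MIA PaCa-2 held 19 TGFB2 counts in all, from 3 libraries, which left the gene untested in that line.

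Of the receptors, TGFBR2 (chr3:30606502-30694142, plus strand) was nearly absent from MIA PaCa-2, where the DMSO libraries held 6, 6 and 0 counts. BxPC-3 had 233, 110 and 247 CPM and PANC-1 136, 156 and 120 CPM. The mean in MIA PaCa-2 was 0.489 ± 0.460 CPM (SD, n = 3), against 137 ± 18.5 CPM in PANC-1, a log2 difference of -7.91 ± 0.429 (adjusted p = 2.04e-14). BxPC-3 and PANC-1 overlapped (adjusted p = 0.0918), but without BxPC-3 replicate 2, the lowest library, BxPC-3 was higher by 0.81 on the log2 scale (adjusted p = 0.0075). TGFBR1 (chr9:99104038-99154192, plus strand) was present in all lines, with 36.3, 38.6 and 51.9 CPM in BxPC-3, 16.6, 14.7 and 9.53 CPM in MIA PaCa-2 and 35.9, 46.6 and 20.4 CPM in PANC-1. It was 2.48-fold lower in MIA PaCa-2 than in PANC-1 (adjusted p = 0.00651 with edgeR, 0.0796 with limma-voom), and BxPC-3 and PANC-1 overlapped (adjusted p = 0.523).

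Among the transducers, SMAD3 (chr15:67063763-67195195, plus strand) followed the same order of lines as TGFB2. With DMSO it stood at 649, 628 and 556 CPM in PANC-1, at 369, 401 and 404 CPM in BxPC-3 and at 83.6, 79.9 and 51.4 CPM in MIA PaCa-2. The 3 lines did not overlap, and MIA PaCa-2 was 8.49-fold lower than PANC-1 (adjusted p = 2.62e-14) while BxPC-3 was 1.56-fold lower (adjusted p = 0.00167). SMAD2 (chr18:47808957-47931146, minus strand), which carries the same signal, varied far less: its means with DMSO were 69.7 ± 2.50 CPM in MIA PaCa-2, 77.2 ± 6.80 in BxPC-3 and 93.3 ± 12.2 in PANC-1 (SD, n = 3). SMAD2 was 1.34-fold lower in MIA PaCa-2 than in PANC-1 (adjusted p = 0.0136), a call that ended without PANC-1 replicate 1 (adjusted p = 0.0614). BxPC-3 and PANC-1 overlapped for SMAD2 (adjusted p = 0.102, and 0.0433 without PANC-1 replicate 3). SMAD4 averaged 49.8 ± 16.3 CPM in MIA PaCa-2, against 44.1 ± 5.32 CPM in PANC-1, and these did not differ beyond their spread (log2 difference 0.19, 95% interval -0.24 to 0.62).

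The inhibitors were low in MIA PaCa-2 as well. SMAD7 (chr18:48919853-48952052, minus strand) had 0, 0 and 5 counts there with DMSO, against 9.23, 10.8 and 8.57 CPM in BxPC-3 and 15.2, 14.1 and 15.8 CPM in PANC-1. MIA PaCa-2 was lower than PANC-1 by a log2 difference of -5.84 ± 0.634 (adjusted p = 6.53e-09), an estimate that rests on the 5 counts of 1 library. SMAD7 in BxPC-3 and PANC-1 did not overlap, but the edgeR test was not passed (1.58-fold, adjusted p = 0.159), whereas DESeq2 (0.000608) and limma-voom (0.0133) called it. SKIL (chr3:170357678-170396835, plus strand) had 58.1, 53.7 and 94.4 CPM in BxPC-3, 7.61, 4.72 and 5.03 CPM in MIA PaCa-2 and 61.0, 85.7 and 87.2 CPM in PANC-1. It was 13.5-fold lower in MIA PaCa-2 than in PANC-1 (adjusted p = 2.48e-12), and BxPC-3 and PANC-1 overlapped (adjusted p = 0.53).

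In counts, 8 of the 9 genes passed the test between MIA PaCa-2 and PANC-1 with DMSO and all 8 were lower in MIA PaCa-2, where 51.2% of all 22132 genes tested passed and 29.5% were lower. The median log2 difference over all genes was -0.12. Between BxPC-3 and MIA PaCa-2, 7 of 8 genes passed, all higher in BxPC-3, beside 57.4% of all genes in either direction, 32.7% that were higher and a median over all genes of 0.13. Between BxPC-3 and PANC-1, 3 of 8 passed, SMAD3 and TGFB2 lower in BxPC-3 and TGFB1 higher, beside 52.5% of all genes, with 25.5% lower and 27.1% higher. SMAD4 is left out of the comparisons with BxPC-3, since its zeros there helped to choose the genes. These comparisons share libraries pairwise.

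Compared per length, as CPM per kilobase of the principal transcript, SMAD3 was the highest of the 8 genes that could be ranked in each line. In BxPC-3 with DMSO it stood at 62.6, followed by TGFBR2 at 42.6 and TGFB1 at 40.6 CPM per kilobase, and the remaining genes were at 9.57 or less. In PANC-1 SMAD3 stood at 97.8, TGFBR2 at 29.7, TGFB1 at 14.98 and TGFB2 at 12.5. In MIA PaCa-2 SMAD3 stood at 11.46, SMAD4 at 5.68 and TGFB1 at 4.59, and TGFBR2, SMAD7 and TGFB2 were at 0.106 or less. SMAD2 was not ranked, because its annotated principal transcript of 34526 bases is far longer than the rest.

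**Figure D2:**
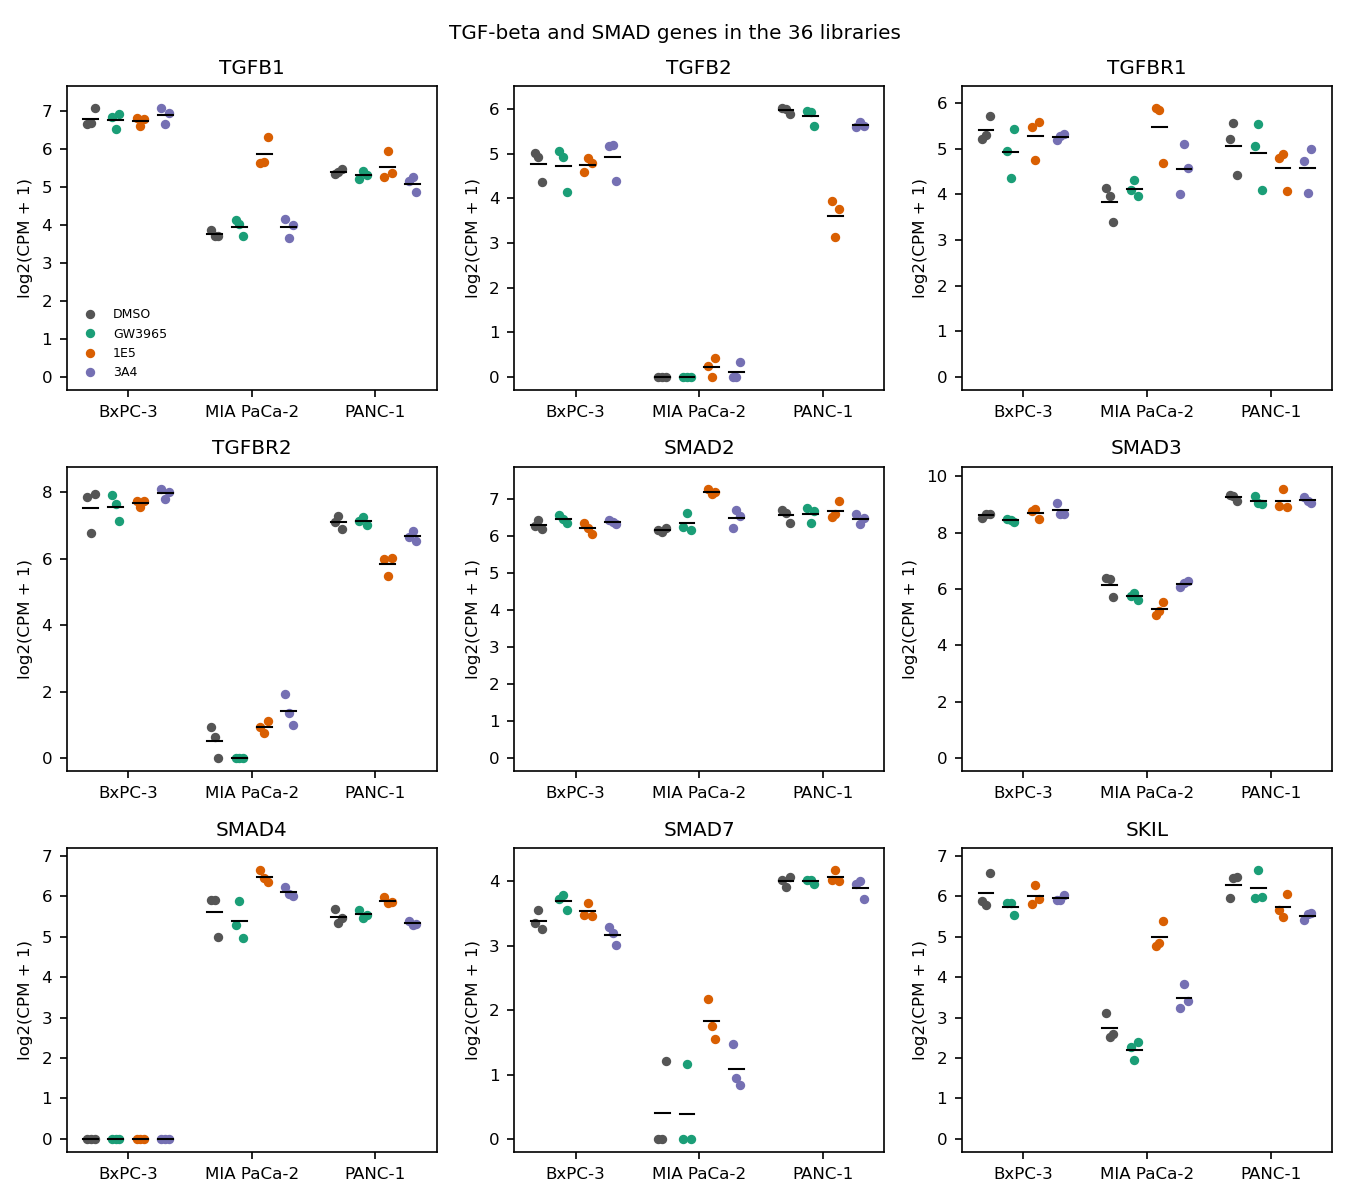
Level of each of the 9 genes in the 36 libraries, as log2(CPM + 1) on the vertical axis, by line and ligand; each point is 1 library and the bar is the mean of 3. SMAD4 is at 0 in all BxPC-3 libraries, TGFB2, TGFBR2 and SMAD7 are near 0 in MIA PaCa-2 with DMSO, and the 1E5 libraries stand apart for TGFB1 and SKIL in MIA PaCa-2 and for TGFB2 and TGFBR2 in PANC-1.

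In MIA PaCa-2, 1E5 raised 5 of the 8 genes tested and lowered 1. TGFB1 and SKIL rose most among those called, followed by TGFBR1, SMAD2 and SMAD4, and SMAD3 fell. The 6 genes called compare with 47% of the 16254 genes tested in that line, the 5 raised with 23.6% and the 1 lowered with 23.4%. The median log2 fold change was 1.32 over the 8 genes and 0.05 over all genes. In this bulk RNA, a changed share of cells in a given state and a changed amount of RNA per cell cannot be told apart.

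TGFB1 rose from 13.7, 12.2 and 12.2 CPM with DMSO to 48.9, 50.1 and 79.6 CPM with 1E5. The groups did not overlap, and the fitted rise was 4.40-fold (log2 2.14 ± 0.233, adjusted p = 1.72e-05). SKIL rose from 7.61, 4.72 and 5.03 CPM to 26.1, 27.5 and 40.6 CPM, also without overlap, by 5.10-fold (log2 2.35 ± 0.283, adjusted p = 3.43e-05). Both calls held in all 6 fits that left out 1 library. TGFBR1 rose from 16.6, 14.7 and 9.53 CPM to 58.8, 56.8 and 24.7 CPM, by 3.20-fold (log2 1.68 ± 0.345, adjusted p = 0.00163). The third 1E5 library was the lowest of its group but still above every DMSO library.

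SMAD2 rose from 69.6, 67.3 and 72.3 CPM to 153, 138 and 144 CPM (log2 0.97 ± 0.143, adjusted p = 0.000158). SMAD3, its close relative, went the other way, from 83.6, 79.9 and 51.4 CPM down to 32.8, 36.2 and 45.6 CPM (2-fold, SE 0.176 on the log2 scale, adjusted p = 0.000552). Neither pair of groups overlapped. SMAD4 rose from 59.4, 59.1 and 30.97 CPM to 99.8, 85.5 and 79.9 CPM (log2 0.73 ± 0.237, adjusted p = 0.0221), without overlap. The SMAD4 call ended without DMSO replicate 3, the lowest and shallowest DMSO library (log2 0.52, adjusted p = 0.0733), and without 1E5 replicate 1 (log2 0.64, adjusted p = 0.075).

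SMAD7 had 95, 62 and 50 counts with 1E5 (3.49, 2.37 and 1.93 CPM), all above the DMSO libraries with their 0, 0 and 5 counts. The test was not passed (log2 3.01, 95% interval 0.34 to 5.68, adjusted p = 0.0615), but it was passed in the single fit of all 36 libraries (adjusted p = 0.000255), with library totals alone (0.047), with limma-voom (0.0106), with no filter on low counts (0.0453) and with only the 2 compared groups (0.0403). It was also passed without DMSO replicate 3 (0.00587). That library is the only DMSO library with a count, so leaving it out sets the DMSO group to 0 and lends the rise no support. TGFBR2 had 25, 18 and 30 counts with 1E5 (0.919, 0.688 and 1.16 CPM), which overlapped the DMSO libraries (adjusted p = 0.496).

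TGFB1 and SKIL are represented by their promoters, because they rose together in MIA PaCa-2, and TGFB2 because it fell in PANC-1. The RefSeq windows (GRCh38.p14) run from 250 to 41 bases before the annotated start, 5′ to 3′ on the strand of the gene, and capitals mark the short SMAD-binding letters CAGAC or GTCTG, searched on both strands. They stand at chr19:41353963-41354172 (minus strand) for TGFB1, chr3:170357465-170357674 (plus strand) for SKIL and chr1:218345086-218345295 (plus strand) for TGFB2, whose RefSeq start lies upstream of the GENCODE start given above.
TGFB1: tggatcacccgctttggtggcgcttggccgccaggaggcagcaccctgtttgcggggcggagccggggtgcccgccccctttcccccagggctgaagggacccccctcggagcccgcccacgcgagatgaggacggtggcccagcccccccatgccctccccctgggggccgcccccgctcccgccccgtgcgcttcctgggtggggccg
SKIL: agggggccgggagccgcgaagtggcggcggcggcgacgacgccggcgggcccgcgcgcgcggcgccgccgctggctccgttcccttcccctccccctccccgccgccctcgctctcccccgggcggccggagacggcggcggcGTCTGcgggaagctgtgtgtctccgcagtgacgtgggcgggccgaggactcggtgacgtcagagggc
TGFB2: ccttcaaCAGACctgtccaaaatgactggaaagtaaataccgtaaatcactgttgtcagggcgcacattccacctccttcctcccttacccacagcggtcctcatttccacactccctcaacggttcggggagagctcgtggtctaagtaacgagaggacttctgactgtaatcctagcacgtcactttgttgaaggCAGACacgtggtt
The TGFB1 window held no match, the SKIL window 1, beginning 107 bases before the start, and the TGFB2 window 2, at 243 and 53 bases. Of 35116 promoter windows of the same length, 33.6% held at least 1 match, so a match is common and is given only as a description of these letters.

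In PANC-1, 1E5 lowered TGFB2 and TGFBR2 and raised SMAD4. These 3 of 9 genes compare with 39.1% of the 18544 genes tested, the 2 that fell with 19.3% and the 1 that rose with 19.7%. TGFB2 fell from 64.4, 63.4 and 58.5 CPM with DMSO to 14.3, 7.78 and 12.6 CPM with 1E5, by 5.37-fold (log2 -2.42 ± 0.187, adjusted p = 3.96e-06). TGFBR2 fell from 136, 156 and 120 CPM to 63.0, 43.6 and 64.1 CPM, by 2.41-fold (log2 -1.27 ± 0.152, adjusted p = 8.2e-05). Neither pair of groups overlapped, and both calls held in all 6 fits that left out 1 library. Without 1E5 replicate 2, the library that stood apart, the log2 changes were -2.22 for TGFB2 (adjusted p = 1.54e-06) and -1.12 for TGFBR2 (adjusted p = 7.95e-05).

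SMAD4 was at 49.9, 39.5 and 42.8 CPM with DMSO and at 62.4, 55.4 and 56.8 CPM with 1E5 in PANC-1, without overlap (1.32-fold, log2 0.41 ± 0.110, adjusted p = 0.0129). The call ended without DMSO replicate 2 (log2 0.31, adjusted p = 0.0658) or DMSO replicate 3 (0.38, 0.0511), in the fit of all 36 libraries (adjusted p = 0.15) and with only the 2 compared groups (0.0675). SKIL stood at 49.0, 44.1 and 65.4 CPM with 1E5 and at 61.0, 85.7 and 87.2 CPM with DMSO, which overlapped (log2 -0.56, 95% interval -1.02 to -0.10, adjusted p = 0.0554). Its test was passed with DESeq2 (0.035) and without 1E5 replicate 3 (0.0324) or DMSO replicate 1 (0.031). SMAD3 had 485, 754 and 483 CPM with 1E5, replicate 2 standing above the rest, and was not called (adjusted p = 0.749), but without that replicate it was lower than with DMSO (log2 -0.34, adjusted p = 0.025). TGFB1, which rose in MIA PaCa-2, stood at 37.9, 61.4 and 40.4 CPM with 1E5 in PANC-1 and overlapped the DMSO libraries (log2 0.18, 95% interval -0.22 to 0.57, adjusted p = 0.468).

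In BxPC-3, none of the 8 genes tested passed with 1E5 by edgeR, DESeq2 or limma-voom, nor did any have an unadjusted p under 0.05. Over all genes 0 of 18042 (0%) passed with edgeR, with 572 at an unadjusted p under 0.05, and 12 passed with DESeq2 and 0 with limma-voom. The log2 changes of the 8 genes lay between -0.12 and 0.16. For TGFB1 the interval was -0.42 to 0.26 and for SKIL -0.53 to 0.33, so the rises seen in MIA PaCa-2 lie outside both. For TGFB2 the interval was -0.63 to 0.56, and the fall seen in PANC-1 lies outside it too.

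The response to 1E5 differed among the 3 lines for all 8 genes that could be tested (F test of the interaction of ligand and line, edgeR), beside 38.5% of the 22132 genes tested. The adjusted p-values ran from 2.9e-07 for TGFB1 and 3.23e-07 for SKIL to 0.00443 for TGFBR2. TGFB1, SKIL, TGFBR1, SMAD2 and SMAD3 had their largest fitted change in MIA PaCa-2. SMAD4 is not among the 8, since BxPC-3 has no counts to compare. For TGFB2, TGFBR2 and SMAD7 the test draws on the few counts of MIA PaCa-2 described above. DESeq2 called 7 of the 8.

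**Figure D3:**
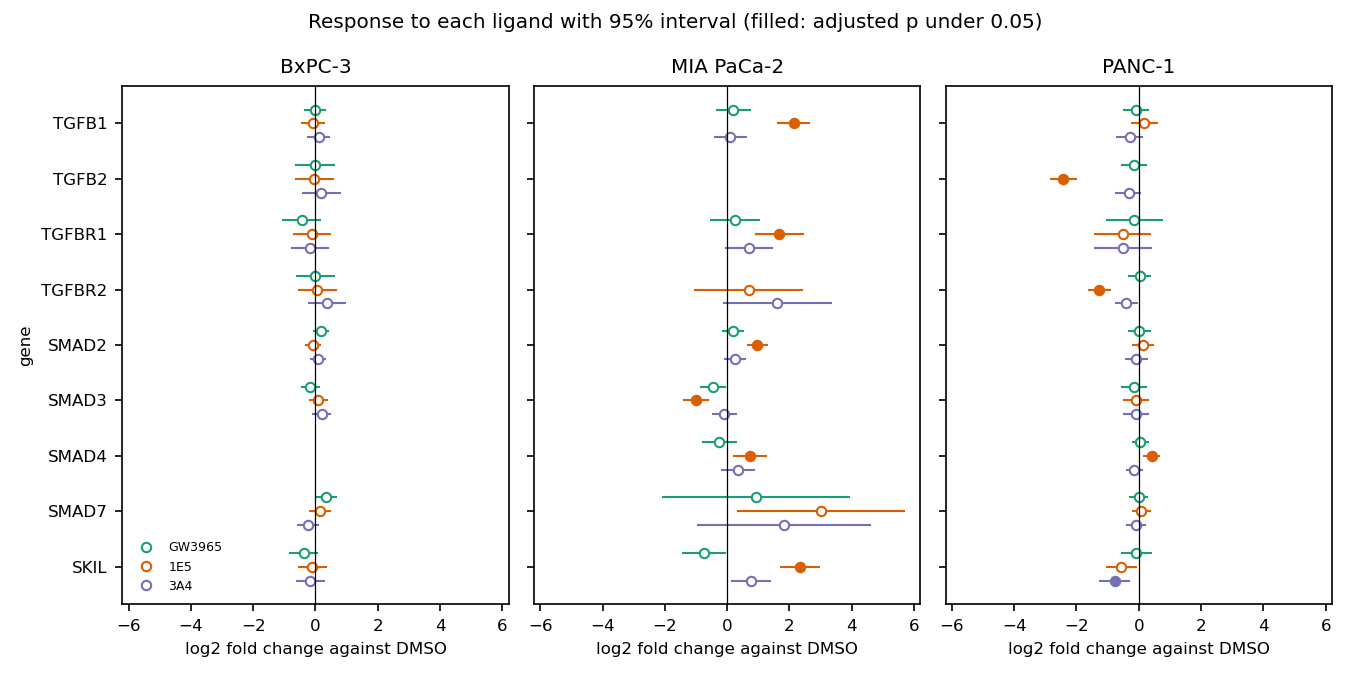
Fitted log2 fold change against DMSO (horizontal axis) of each gene (vertical axis) with its 95% interval, by line and ligand; filled points passed an adjusted p of 0.05. The filled points are 1E5 in MIA PaCa-2 for TGFB1, TGFBR1, SMAD2, SMAD3, SMAD4 and SKIL, 1E5 in PANC-1 for TGFB2, TGFBR2 and SMAD4, and 3A4 in PANC-1 for SKIL; SMAD4 in BxPC-3 and TGFB2 in MIA PaCa-2 were not tested, and TGFBR2 with GW3965 in MIA PaCa-2 has no fold because its libraries are at 0.

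With 3A4, 1 of the 9 genes passed in PANC-1, beside 7.37% of all genes tested and 3.84% that were lower. SKIL fell from 61.0, 85.7 and 87.2 CPM to 41.6, 46.1 and 46.7 CPM (1.72-fold, log2 -0.78 ± 0.213, adjusted p = 0.048), without overlap. That call is at the threshold. It ended with library totals alone (adjusted p = 0.0947), with no filter on low counts (0.063) and without any 1 of the 3A4 replicates 1 (0.158), 2 (0.112) and 3 (0.118) or the DMSO replicates 2 (0.139) and 3 (0.14). TGFBR2 stood at 101, 114 and 92.3 CPM, below all DMSO libraries (log2 -0.40, 95% interval -0.73 to -0.07, adjusted p = 0.125), and TGFB2 at 47.0, 51.0 and 48.1 CPM, also below them (log2 -0.33, -0.72 to 0.05, adjusted p = 0.272). TGFB1 was the last gene without overlap, at 34.6, 37.6 and 28.2 CPM (log2 -0.29, adjusted p = 0.357). Groups of 3 without overlap are given as a description, since the share of all genes without overlap is not given. When 1E5 replicate 2 was left out of the shared estimate of spread, TGFBR2 was called as well (adjusted p = 0.0325), and with only the 2 compared groups TGFB2 was (0.0471).

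In MIA PaCa-2 none of the 8 genes passed with 3A4 by edgeR, DESeq2 or limma-voom, beside 13.8% of all genes, and 1 had an unadjusted p under 0.05, as did 4955 of all 16254 genes. That gene was SKIL, at 8.38, 13.1 and 9.59 CPM, above all DMSO libraries (log2 0.75, 95% interval 0.15 to 1.36, adjusted p = 0.0897), which was called only in the fit of all 36 libraries (adjusted p = 0.0276). SMAD4, SMAD2 and TGFBR2 also stood above all DMSO libraries, with log2 changes of 0.34, 0.25 and 1.61 that did not pass, the last from 25, 37 and 19 counts. The share of all genes without overlap is not given, so this too is only a description. TGFB1 stood at 17.0, 11.6 and 15.1 CPM, overlapping DMSO (log2 0.10, 95% interval -0.40 to 0.60). In BxPC-3 none of the 8 passed by the 3 tools, beside 0.0333% of all genes, and none had an unadjusted p under 0.05, beside 2292 of 18042, with log2 changes from -0.24 to 0.36.

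The response of SKIL to 3A4 differed among lines (adjusted p = 0.0124), as the only one of 8 genes to do so with edgeR, beside 5.89% of all genes. Its log2 change was -0.78 in PANC-1, -0.16 in BxPC-3 and 0.75 in MIA PaCa-2. The call ended without the MIA PaCa-2 libraries 3A4 replicate 2 (adjusted p = 0.0641) or DMSO replicate 2 (0.05) and with limma-voom (0.0881).

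The 2 compounds that the labels class as inverse agonists, given at the same dose and time, were compared directly. In MIA PaCa-2, 5 of 8 genes differed, beside 32.4% of all genes, 4 of them lower with 3A4 (15.1% of all) and 1 higher (17.2%). With 3A4, TGFB1 was 4.10-fold lower than with 1E5 (log2 -2.03 ± 0.225, adjusted p = 3.42e-05), SKIL 3.02-fold lower (log2 -1.60 ± 0.263, adjusted p = 0.000577) and SMAD2 1.64-fold lower (adjusted p = 0.00196), while SMAD3 was 1.88-fold higher (adjusted p = 0.00162), all without overlap. TGFBR1 was 1.96-fold lower with overlap (adjusted p = 0.0376). The TGFBR1 call ended in the fit of all 36 libraries (0.0542), with only the 2 compared groups (0.0809), leaving out the 2 shallowest libraries (0.0533), and without 1E5 replicate 1 (0.137) or 2 (0.128) or 3A4 replicate 1 (0.163) or 3 (0.099). SMAD7 was 2.28-fold lower without passing (adjusted p = 0.372), but passed in the fit of all 36 libraries (0.0395) and with limma-voom (0.0491).

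In PANC-1, 3 of 9 genes differed between the compounds, beside 37.3% of all genes, 2 higher with 3A4 (18.5% of all) and 1 lower (18.8%). With 3A4, TGFB2 was 4.26-fold higher than with 1E5 (log2 2.09 ± 0.185, adjusted p = 1.34e-05), TGFBR2 1.82-fold higher (log2 0.86 ± 0.151, adjusted p = 0.00107) and SMAD4 1.46-fold lower (log2 -0.55 ± 0.111, adjusted p = 0.00249), all without overlap. These calls held in all 6 fits that left out 1 library. TGFB1 was 1.38-fold lower without passing (adjusted p = 0.0618), and passed with DESeq2 (0.0478) and without 1E5 replicate 1 (0.0244) or 3 (0.0471). For SKIL the difference had an interval of -0.69 to 0.24 on the log2 scale. In BxPC-3 none of 8 differed by the 3 tools, beside 0.144% of all genes, and 1, SMAD7, had an unadjusted p under 0.05, as did 2497 of 18042 genes (log2 -0.39, 95% interval -0.71 to -0.07, adjusted p = 0.285).

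GW3965, the agonist, changed none of these genes past the threshold in any line by edgeR, DESeq2 or limma-voom. That is 0 of 8 in BxPC-3 beside 1.32% of all genes, 0 of 8 in MIA PaCa-2 beside 0.523%, and 0 of 9 in PANC-1 beside 0.0485%. At an unadjusted p under 0.05 there were 1 of these genes (SMAD7), 3 (SMAD3, TGFBR2 and SKIL) and 0, beside 2177 of 18042, 1420 of 16254 and 831 of 18544 of all genes. In PANC-1 the log2 changes lay between -0.15 and 0.05. In MIA PaCa-2 SKIL stood at 3.82, 2.85 and 4.25 CPM, below all DMSO libraries (log2 -0.75, 95% interval -1.43 to -0.06, adjusted p = 0.527), and TGFBR2 had no count in any of the 3 libraries, against 6, 6 and 0 with DMSO (adjusted p = 0.293). The response to GW3965 differed among lines for 0 of the 8 genes by edgeR, DESeq2 or limma-voom, beside 0.104% of all genes, and TGFBR2 alone had an unadjusted p under 0.05 (0.0126, adjusted p = 0.551), as did 1368 of 22132 genes.

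Further genes of the pathway were taken from 5 lists with 83 genes: ligands and the proteins that release them, receptors and co-receptors, the other SMADs, inhibitors and regulators, and transcriptional targets. With 1E5 in MIA PaCa-2, 35 of 65 tested genes passed, 25 higher and 10 lower, and in PANC-1 41 of 74, 13 higher and 28 lower, beside 47% and 39.1% of all genes. Of all genes, 23.6% were higher and 23.4% lower in MIA PaCa-2, and 19.7% and 19.3% in PANC-1. The median log2 change of the listed genes was 0.35 for MIA PaCa-2, against 0.05 over all genes, and -0.24 for PANC-1, against 0.02.

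Among ligands and release factors with 1E5, 3 rose and 4 fell of 12 in MIA PaCa-2, and 0 rose and 9 fell of 16 in PANC-1. That is 58.3% called, beside 47% of all genes, and 56.2%, beside 39.1%, with the fall of 9 in PANC-1 standing beside 19.3% lower among all genes. INHBB, a subunit of activin B, went from 1.01 up to 14.6 CPM in MIA PaCa-2 (11.9-fold, adjusted p = 0.000304) and fell 3.84-fold in PANC-1 (58.9 to 15.3 CPM, adjusted p = 2.21e-06). LTBP1, which anchors latent TGF-beta in the matrix, rose 5.90-fold in MIA PaCa-2 (adjusted p = 0.000121), where LTBP3 fell 3.87-fold (3.1e-05). In PANC-1 GDF11, a ligand close to myostatin, fell 4.52-fold (2.84e-06), and TGFB3, the third TGF-beta ligand, fell 2.81-fold, from 4.11 to 1.46 CPM (0.00031).

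Among receptors with 1E5, 5 rose and 1 fell of 9 in MIA PaCa-2, and 2 rose and 3 fell of 9 in PANC-1, which is 66.7% called beside 47% of all genes (23.6% higher) and 55.6% beside 39.1%. ACVR1 and ACVR2B, type I and type II receptors for activins and bone morphogenetic proteins (BMP), rose in both lines: ACVR1 by 2.64-fold in MIA PaCa-2 (0.00984) and 2.31-fold in PANC-1 (1.2e-05), and ACVR2B by 3.38-fold (adjusted p = 0.043) and 2.92-fold (0.0023). BMPR2, the type II BMP receptor, rose 2.82-fold in MIA PaCa-2 (adjusted p = 0.000482) and fell 1.84-fold in PANC-1 (0.000271). Of the 4 other SMADs, 1 rose and 1 fell in each line, which is 50% called beside 47% and 39.1% of all genes. SMAD9 rose in both lines, by 4.24-fold (0.00143) and 2.39-fold (0.013). SMAD6, an inhibitory SMAD, fell in both, by 5.56-fold in PANC-1, from 53.5 to 9.62 CPM (3.12e-05). In MIA PaCa-2 SMAD6 fell 4.05-fold from a low level, 2.98 to 0.775 CPM (0.00614).

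Among inhibitors and regulators with 1E5, 10 rose and 2 fell of 18 in MIA PaCa-2, and 5 rose and 7 fell of 19 in PANC-1, which is 66.7% called beside 47% of all genes (23.6% higher, 23.4% lower) and 63.2% beside 39.1%. TGIF1, a SMAD co-repressor, rose 2.92-fold in MIA PaCa-2 (adjusted p = 2.91e-06). FKBP1A, which binds the type I receptor, fell 2.21-fold in MIA PaCa-2 (0.000166) and 1.96-fold in PANC-1 (0.00777). PMEPA1, a pathway target that feeds back on SMADs, fell 2.41-fold in PANC-1, from 104.9 to 43.4 CPM (adjusted p = 0.000258), and was not called in MIA PaCa-2 (log2 0.12, 95% interval -0.35 to 0.60).

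Of the transcriptional targets with 1E5, 6 rose and 2 fell of 22 in MIA PaCa-2, and 5 rose and 8 fell of 26 in PANC-1. The 36.4% called in MIA PaCa-2 were below the 47% of all genes, and the 50% called in PANC-1 stand beside 39.1% (19.7% higher, 19.3% lower). TGFBI, a matrix protein, fell 5.00-fold in MIA PaCa-2 (adjusted p = 2.49e-05). COL1A1, which is also on the fibroblast marker list above, fell 13.4-fold in PANC-1 (adjusted p = 0.000653), and TGM2, a transglutaminase, fell 5.89-fold (0.000373). The cell-cycle inhibitor CDKN1A rose 15.8-fold in MIA PaCa-2 (adjusted p = 1.99e-06), and ID1 and ID3, targets of BMP signalling, rose 1.85-fold (0.00205) and 3.11-fold (0.000321) in PANC-1.

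With 3A4, 20 of 65 listed genes passed in MIA PaCa-2, 16 higher and 4 lower, beside 13.8% of all genes (7.3% higher, 6.45% lower), and 14 of 74 in PANC-1, 8 higher and 6 lower, beside 7.37% (3.53% higher, 3.84% lower). The fibroblast and endothelial marker sums in MIA PaCa-2 and the fibroblast and leukocyte sums in PANC-1 also moved with 3A4, by the values given above, and their part in these counts was not tested. In MIA PaCa-2 the calls included 11 of 22 transcriptional targets, 8 of them higher and 3 lower. TGFBR2 stood at 1.78 ± 0.918 CPM in the same libraries, and a link between that level and these calls was not tested. CCN2, a matricellular growth factor, rose 5.03-fold from 2.40 to 13.3 CPM (adjusted p = 0.00519) and TGFBI 3.15-fold (0.00264). SMURF2, a ubiquitin ligase that acts on the receptor with SMAD7, rose 3.11-fold (0.000578). ID1, a BMP target, fell 1.92-fold (0.0187). TGFBI was 15.7-fold higher with 3A4 than with 1E5 in MIA PaCa-2 (adjusted p = 1.23e-06). In PANC-1, TGFB3 rose 2.17-fold with 3A4 (0.0106), BMPR2 fell 1.85-fold (0.00268) and COL1A1 fell 4.77-fold (0.0361).

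**Figure D4:**
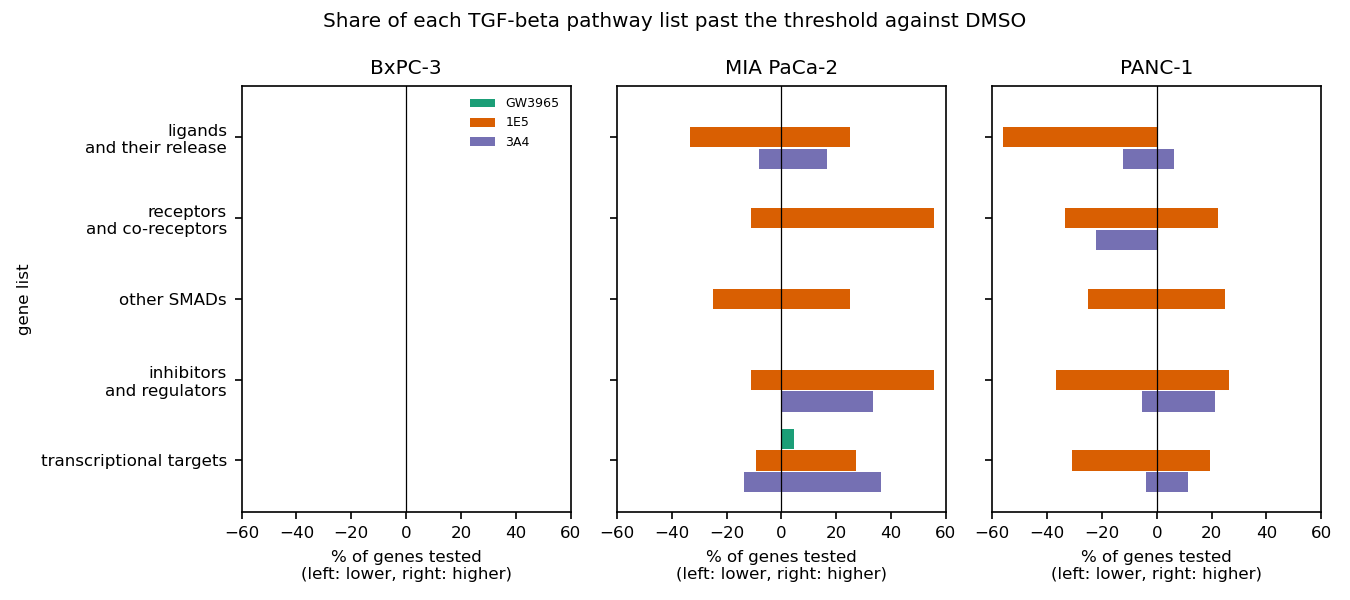
Percent of the tested genes of each list that passed against DMSO, drawn to the right of 0 where they were higher and to the left where lower, by line and ligand. BxPC-3 has no bar, 1E5 has the ligands list only to the left in PANC-1, and the inhibitors list under 3A4 lies only to the right in MIA PaCa-2.

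The genes whose levels followed each of the 9 most closely were sought over the libraries after removal of each line's mean, by Pearson r of log2 CPM among up to 11802 protein-coding genes tested in all lines, as a description of libraries that share 3 lines and 12 groups. SMAD4 went most closely with DYNLL2 (r = 0.922), YWHAG (0.913) and ATXN1L (0.911) over the 24 libraries of MIA PaCa-2 and PANC-1. Over all 36 libraries TGFB1 went with NBAS (0.913), JAK1 (0.912) and CASK (0.905), SKIL with PURB (0.884), PPP4R3B (0.878) and PGM2L1 (0.877), and TGFBR2 with ABCG2 (0.923), SON (0.829) and TRIP12 (0.828). SMAD2 went with MAN2A1 (0.870), SGPL1 (0.861) and CRTC3 (0.860), SMAD3 with UBE2O (0.817), COLGALT1 (0.816) and FANCG (0.808), and SMAD7 with SH3BGRL2 (0.933), GRK4 (0.842) and PARP8 (0.833). TGFBR1 and TGFB2 had looser companions, TMEM50A (0.760), BAG5 (0.759) and PTBP3 (0.753) for the receptor, and AMOTL1 (0.797), WBP1L (0.768) and INTS2 (0.765) for the ligand. No member of the 9 was among the 3 closest genes of another. In MIA PaCa-2, SMAD7 and TGFBR2 were at 0 in 4 libraries each and TGFB2 in 9. The part of these zeros in their r values was not tested.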

How the data were processed

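Gene counts, as whole numbers, came from the single table that the authors deposited for all 36 libraries. Per the submitters' processing notes, the tools were StringTie 1.3.1c, HISAT2 2.0.2, Trim Galore 0.4.4 and SAMtools 1.3 and the build GRCh38, with no role or order named. Per the labels' protocols, a stranded total RNA kit was used. Annotation, strand setting and the handling of shared reads: not given in the sources used here, which makes genes that overlap others uncertain. Of 58658 lines, 407 named a transcript and 8 an assembled locus, and these were left out (at most 0.00396% of a library's counts). Symbols were found for 57532 of the 58243 genes, and positions come from GENCODE release 29. Counts were fitted within each line with edgeR 4.0.16 in R 4.3.3 (TMM, filterByExpr with a minimum count of 10 and total of 15, quasi-likelihood test, two-sided). Line contrasts and the F tests used 1 fit of all 36 libraries. Benjamini-Hochberg adjustment ran over every gene tested, and calls needed an adjusted p under 0.05. CPM are on the TMM scale of all 36 libraries, which differs from that of the line fits by at most 6.63%, so fitted folds can differ slightly from ratios of CPM. SE is that of the log2 fold change. A group without counts was set to 3 counts over its summed totals. The depth behind each value is the library totals given above, and intervals and floors cover counting error and the spread of these libraries only. The 9 genes and the lists were chosen with earlier results of these data known. Named from the lists were, per contrast, up to 3 called genes per list with the largest change at a mean of at least 2 CPM, with CCN2, TGFBI, PMEPA1 and ID1 allowed throughout; 1 further gene of the lists is in their counts and is not reported here. Alternatives were RLE scaling, library totals alone, no low-count filter, DESeq2 1.42.0, limma-voom (limma 3.58.1), the replicate number as a block, other sets of libraries in the fit, and each library left out in turn. The code was tested on simulated data.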

Additional observations from a re-analysis of the deposited data

Results flagged for a closer look

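The response to 1E5 differed among the 3 lines by a test of the difference itself (edgeR, F test of ligand by line, adjusted over all genes) for 8 genes. The adjusted p-values were 2.9e-07 for TGFB1, 3.23e-07 for SKIL, 7.49e-05 for SMAD2, 0.000252 for TGFB2, 0.00249 for SMAD3, 0.0027 for TGFBR1, 0.00421 for SMAD7 and 0.00443 for TGFBR2. TGFB1, SKIL, TGFBR1 and SMAD2 rose and SMAD3 fell in MIA PaCa-2, whereas TGFB2 and TGFBR2 fell in PANC-1. SMAD7 was called in no single line. All 8 kept their call in each of the 18 fits that left out 1 library. For TGFB2, TGFBR2 and SMAD7, however, the test draws on few counts in MIA PaCa-2, where TGFB2 had none with DMSO. The response to 3A4 differed for SKIL (adjusted p = 0.0124), which was lower than with DMSO in PANC-1 and not called in the other 2 lines.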

How the results depend on the processing

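No called value changed direction under any alternative. Of the values for single genes, 2291 kept their side of the threshold, 29 passed it and 25 lost it. For 3A4 in MIA PaCa-2 the count of these genes past the threshold, 0, became 1 in the fit of all 36 libraries. For 3A4 in PANC-1 the count of 1 became 0 with library totals alone or with no filter, and 2 with only the compared groups or, chosen after seeing the data, without PANC-1 1E5 replicate 2 in the shared spread. For the 3A4 response by line it became 2 with DESeq2. With 1 library left out, the counts ran from 5 to 6 for 1E5 in MIA PaCa-2, 2 to 4 for 1E5 in PANC-1, 0 to 1 for 3A4 in PANC-1, 4 to 5 and 3 to 4 for 3A4 against 1E5 in these lines, 3 to 4 for BxPC-3 against PANC-1, 7 to 8 for MIA PaCa-2 against PANC-1 and 0 to 2 for the 3A4 response; the cause was not tested. Without the 2 shallowest MIA PaCa-2 libraries, chosen after seeing the totals, 7 genes passed with 1E5. Library totals alone moved the median log2 change of all genes with 1E5 in MIA PaCa-2 from 0.05 to 0.23. Replicate numbers were not shown to pair the libraries: deviations of same-numbered libraries correlated at -0.0616 to 0.232. The replicate block gave 4 of these genes in PANC-1 for 1E5 and for 3A4 against 1E5 and changed no other such count, but over all genes in BxPC-3 it moved 239 to 478 with GW3965 and 6 to 275 with 3A4. DESeq2 called 599 and 369 there, and with GW3965 267 in MIA PaCa-2 against 85 and 97 in PANC-1 against 9. The depth of the MIA PaCa-2 DMSO libraries limits what can be seen of TGFB2, TGFBR2 and SMAD7.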
